A study of Mus musculus with 16 samples.

Results

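The 44 genes described here encode the proteins that copy chromosomal DNA and the regulators that carry a cell from G1 into S phase. They were picked by gene symbol, with earlier results of these data known. The symbols were matched to Ensembl gene identifiers in the deposited count table, which lists 22468 genes. All 44 had reads, and all 44 were among the 13412 genes that passed the filter on low counts and were tested. Messenger RNA was sequenced from the full ventricles of newborn mice, taken above and below the ligature together. Injured and uninjured muscle were thus mixed in each sample from an infarcted heart. The 16 libraries form 4 groups of 4. KO MI hearts came from mice lacking Chrna7 (a Jackson Laboratory line), the gene of a nicotinic acetylcholine receptor subunit, after surgical myocardial infarction. KO sham hearts came from mice of the same knockout line after sham surgery. WT MI hearts came from wild-type mice after infarction, and WT sham hearts came from wild-type mice after sham surgery. The labels give the age only as neonatal, and they give no sex, litter or time between surgery and harvest. They do not say whether each sample was a separate animal, so the p-values measure only the spread between these samples.

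Reads assigned to genes ranged between 10711442 and 17223580 per library. All 10 cardiomyocyte markers had reads in every group. Chrna7 itself had 2 to 4 reads per KO MI library, 0 to 2 per KO sham library, 0 to 2 per WT MI library and 0 to 2 per WT sham library, which is too few to check the genotype labels. The KO sham libraries stood apart over all genes tested: on the first principal component, with 25.5% of the variance, they scored 27.9 to 31.6, and no other library scored above 1. The labels give no batch, so a batch shared by these 4 libraries and the group itself cannot be told apart. On the fourth component KO MI 4, WT MI 2 and WT sham 2 stood apart. Mitochondrial genes took 17.3% of counts in KO MI 4 and 9.79% to 10.6% in the other KO MI libraries, 11.8% to 13% in KO sham, 12.8% in WT MI 2 and 10.2% to 11.1% in the other WT MI libraries, and 13.4% in WT sham 2 and 9.51% to 9.8% in the other WT sham libraries. Their part in the results was not tested beyond the fits without these libraries or genes. Y-linked genes summed to 1.76 to 2.82 CPM (read counts scaled to library size) in KO MI 1, KO sham 2 and WT sham 1 and to at least 147 CPM in every other library.

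Replication starts at origins, where the origin recognition complex, Cdc6 and Cdt1 load rings of Mcm2 to Mcm7 onto DNA during G1. At the G1/S transition cyclin E and its kinase partner help to switch these rings into active helicases by adding Cdc45 and the GINS complex, with Mcm10, after which primase, DNA polymerases, the sliding clamp and DNA ligase copy the strands. E2F transcription factors, released from the retinoblastoma proteins, drive many of these genes, and in the mouse heart cardiomyocytes still enter the cell cycle around birth and largely leave it soon afterwards.

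Because E2F factors are known regulators of many of these genes, their promoters were searched for the E2F letters TTTCGCGC, TTTGGCGC, TTTCCCGC and TTTGCCGC on both strands. RefSeq promoter windows (GRCm38.p6, 250 bases before to 50 after each start) were at hand for 37 of the 44 genes, in 43 windows. Of these 43 windows 15 held an E2F match (34.9%; exact 95% binomial interval 21% to 50.9%), against 744 of all 32851 windows (2.26%). Median GC content was 60% in the members' windows and 52.7% in all windows, and its part in the share was not tested. The matches printed here belong to 8 genes called higher in KO MI than in KO sham hearts and, after them, to 4 that were not called; capitals mark the E2F letters, each sequence reads 5′ to 3′ on the gene's own strand, and stretches reaching past the start are cut short.
Cdc6, chr11:98907987-98908046, plus strand: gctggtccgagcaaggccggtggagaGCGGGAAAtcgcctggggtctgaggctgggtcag
Mcm3, chr1:20820275-20820304, minus strand: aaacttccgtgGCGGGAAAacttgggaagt
Mcm5, chr8:75109330-75109389, plus strand: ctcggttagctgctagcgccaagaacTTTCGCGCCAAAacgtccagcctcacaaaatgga
Mcm6, chr1:128359782-128359841, minus strand: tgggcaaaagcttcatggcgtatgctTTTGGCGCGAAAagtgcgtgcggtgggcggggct
Mcm7, chr5:138172015-138172074, minus strand: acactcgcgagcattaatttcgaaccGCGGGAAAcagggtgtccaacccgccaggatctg
Pold1, chr7:44548766-44548787, minus strand: cgtatcttgtgGCGGGAAAagc
Lig1, chr7:13278841-13278870, plus strand: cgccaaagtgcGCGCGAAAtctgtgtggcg
Uhrf1, chr17:56304102-56304161, plus strand: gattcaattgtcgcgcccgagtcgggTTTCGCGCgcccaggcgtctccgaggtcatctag
Orc1, chr4:108579416-108579445, plus strand: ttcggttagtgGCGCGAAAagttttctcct
Pola1, chrX:93632260-93632319, minus strand: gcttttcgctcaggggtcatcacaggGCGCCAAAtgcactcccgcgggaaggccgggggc
Rfc3, chr5:151651200-151651229, minus strand: acgtcgcacgcTTTCGCGCtcGCGGGAAAa
Cdc25a, chr9:109875486-109875545, plus strand: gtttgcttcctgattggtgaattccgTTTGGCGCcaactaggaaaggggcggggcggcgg

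In Mcm5 and Mcm6 matches on opposite strands overlap in the capitals TTTCGCGCCAAA and TTTGGCGCGAAA, so that a run of T and a run of A flank a shared GC core. Cdt1, E2f2 and Gins3 also held a match. Of the genes with a window, 8 of the 23 that were called higher in KO MI hearts held a match (34.8%), and so did 7 of the 14 that were not called (50%). Of 50 windows of other replication genes 13 held a match (26%), and of 22 windows of other G1/S regulators 6 did (27.3%). The mitosis and cytokinesis genes held a different mix of letters. Of their 28 windows, 1 held an E2F match (3.57%), 24 held CCAAT (85.7%), and 26 held a CHR element, searched as TTTGAA and TTTAAA (92.9%). The replication and G1/S windows held CCAAT in 60.5% and a CHR element in 25.6%, against 37.4% and 27.6% of all windows. A match is a run of letters, and no binding was measured.

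The shares below are not independent of the choice of the 44 genes, which was made with earlier results of these data known. In the knockout, 27 of the 44 genes were higher in KO MI than in KO sham hearts and none was lower (61.4%, where 8.54% of all genes tested were higher). These 27 include all 6 subunits of the Mcm2 to Mcm7 ring, Cdc6, Cdc45, the leading and lagging strand enzymes Pole, Pold1, Fen1 and Lig1, the clamp Pcna and cyclin E1. In wild type, no member was called between WT MI and WT sham hearts (2.25% of all genes were called). Between the sham groups, 11 of the 44 were lower in KO sham than in WT sham hearts (25%, where 7.74% of all genes were lower), and no member was called between KO MI and WT MI hearts (0.0149% of all genes were called). The median log2 fold change of the 44 was 0.44 for KO MI over KO sham, 0.10 for WT MI over WT sham, -0.29 for KO sham over WT sham and 0.03 for KO MI over WT MI, while the median over all genes tested lay between -0.01 and 0.01 in each. Calls rest on edgeR's quasi-likelihood test over all 16 libraries with Benjamini-Hochberg adjustment over the 13412 genes, at an adjusted p under 0.05, and every adjusted p below comes from that test unless another is named.

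**Figure D1:**
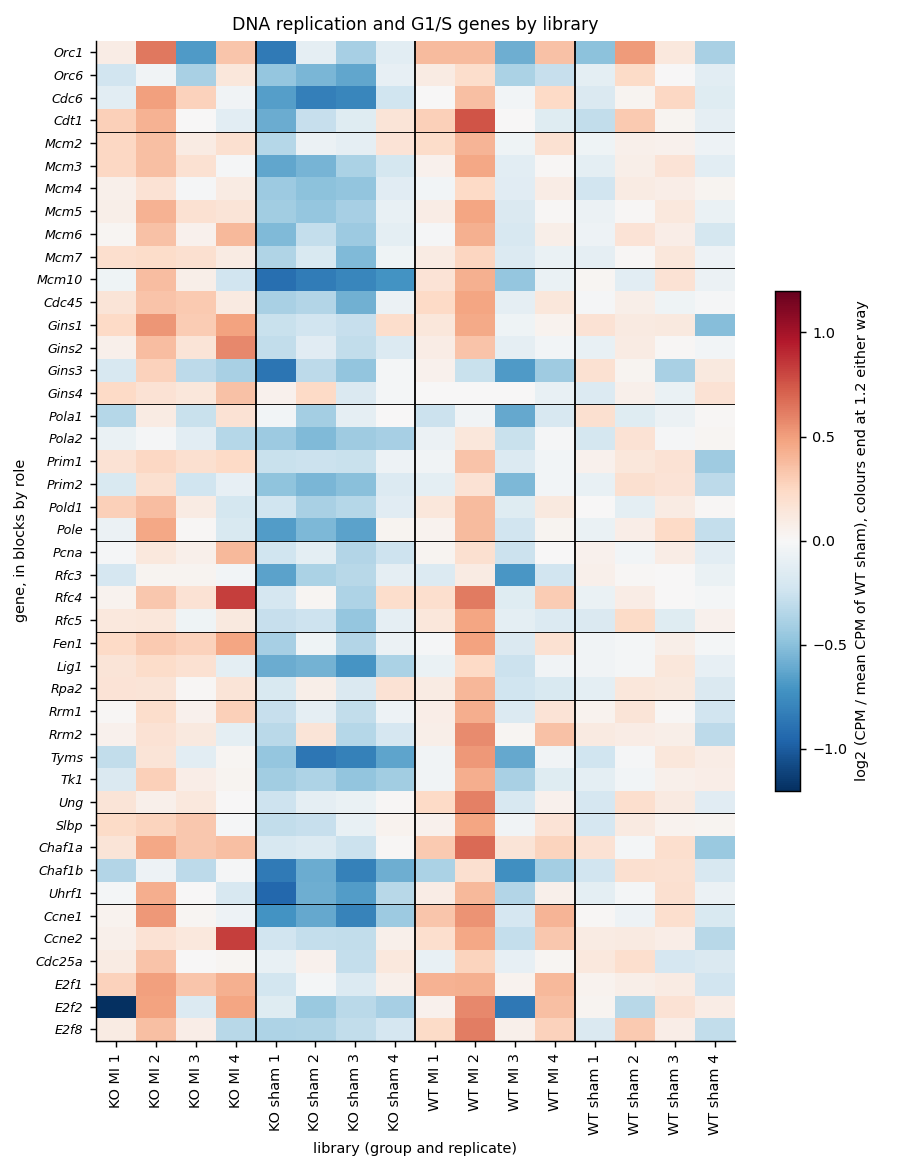
Level of each of the 44 genes (down the page, in blocks by role) in each of the 16 libraries (across), as the log2 ratio of its CPM to the mean of the WT sham libraries, with colours ending at 1.2 either way. The KO sham columns are below the WT sham mean for 31 to 44 of the 44 genes, and WT MI 2 is above it for 41.

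Without a model, the ranges of the groups were compared. In 25 of the 44 genes (56.8%) every KO MI library lay above every KO sham library, against 11.4% of all genes tested. In 16 of the 44 (36.4%) every KO sham library lay below every WT sham library, against 12.3% of all genes. The WT MI and WT sham ranges overlapped for all 44, where 8.22% of all genes had no overlap. The KO MI range lay above the WT MI range for 1 member, Gins4, and for 1.09% of all genes. The contrasts of KO MI with KO sham and of KO sham with WT sham share the KO sham libraries, so their calls are not independent of each other. In bulk ventricle, fewer cycling cells and less RNA per cycling cell cannot be told apart.

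Summed over the 44 genes, the libraries had 1683, 1918, 1699 and 1767 CPM in KO MI, against 1225, 1343, 1230 and 1468 CPM in KO sham. The WT MI libraries had 1676, 2082, 1408 and 1666 CPM, against 1550, 1673, 1693 and 1472 CPM in WT sham. Every KO sham sum lay below every KO MI sum and below every WT sham sum, whereas the WT MI sums ran from below to above the whole WT sham range.

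**Figure D2:**
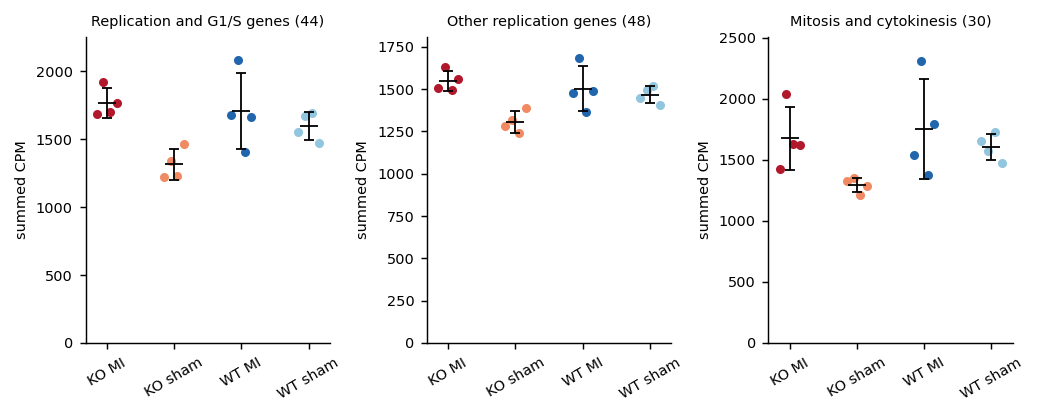
Summed level (CPM) of the 44 replication and G1/S genes, of 48 other replication genes and of 30 mitosis and cytokinesis genes in each library, with the mean and SD of each group (n = 4). KO sham is the lowest group in all 3 panels, and WT MI spreads most widely, between 1408 and 2082 CPM for the 44 genes.

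Markers of other cell types also differed between these groups, in both directions. Over all genes tested, 8.54% were higher and 8.02% lower in KO MI than in KO sham hearts. Between the sham groups, 7.6% were higher and 7.74% lower in KO sham than in WT sham hearts. In wild type, 1.32% were higher in WT MI than in WT sham hearts. All 8 epicardium and mesothelium markers were higher in KO MI than in KO sham hearts (median log2 2) and lower in KO sham than in WT sham hearts (median log2 -2.18), and their summed level was 48 to 129 CPM in KO MI, 27.7 to 35.3 CPM in KO sham, 60.9 to 77.7 CPM in WT MI and 95.8 to 147 CPM in WT sham. The keratins Krt8 and Krt18 had the smallest p of them in KO MI over KO sham, with fold changes below the list's median (log2 1.85, adjusted p = 0.000136; log2 1.38, adjusted p = 0.000547). Macrophage and pan-leukocyte markers were higher in KO MI than in KO sham hearts for 5 of 9 tested and in WT MI than in WT sham hearts for 2 of 9, with sums of 193 to 422 CPM in KO MI, 139 to 157 CPM in KO sham, 154 to 248 CPM in WT MI and 106 to 125 CPM in WT sham. The complement gene C1qa and the surface marker Adgre1 were called in both genotypes (KO MI over KO sham log2 0.94 and 0.95). Neutrophil markers were higher in KO MI than in KO sham hearts for 4 of 5 tested, Ngp and S100a9 first (log2 2.48 and 2.84), with sums of 25.2 to 101 CPM in KO MI, 6.77 to 14.6 CPM in KO sham, 11.8 to 93.1 CPM in WT MI and 7.78 to 12.4 CPM in WT sham; Mpo was at 0 in KO sham and Elane in WT sham. The 4 atrial markers were all lower in KO sham than in WT sham hearts, at 272 to 607 CPM against 709 to 3320 CPM, with 648 to 2740 CPM in KO MI and 1350 to 2180 CPM in WT MI. All 4 haemoglobin genes tested were lower in KO sham than in WT sham hearts, with sums of 1070 to 1770 CPM in KO MI, 947 to 1350 CPM in KO sham, 1630 to 2020 CPM in WT MI and 2840 to 4610 CPM in WT sham; Hbb-y was at 0 in KO sham. Of 10 cardiomyocyte markers, 3 were lower and 0 higher in KO MI than in KO sham hearts. Ttn, the giant sarcomere protein, was at log2 -0.50 and the calcium release channel Ryr2 at log2 -0.52. The log2 fold changes were negative for 6 of the 10 and positive for 4 (median -0.06). The cardiomyocyte sums were 75210, 70670, 71060 and 48580 CPM in KO MI, against 70900 to 73900 CPM in KO sham. The low sum was that of KO MI 4 alone. In wild type these sums were 73300 to 78900 CPM in WT MI and 78700 to 89400 CPM in WT sham. Of 8 smooth muscle and pericyte markers 2 were higher and 3 lower, of 8 fibroblast markers 1 was higher and 1 lower, and of 8 endothelial markers 0 were called in KO MI over KO sham. Of 4 lymphocyte markers tested 0 were called, and of 4 erythroid precursor markers tested 1 was higher, with Rhag at 0 in KO sham. In KO sham against WT sham, 1 of 10 cardiomyocyte markers was lower and 0 higher, with log2 fold changes negative for 7 and positive for 3 (median -0.21). Every KO sham cardiomyocyte sum lay below every WT sham sum. In that contrast 0 of 9 macrophage and pan-leukocyte and 0 of 5 neutrophil markers were called. The macrophage and pan-leukocyte log2 fold changes were positive for 8 of 9 (median 0.35). Smooth muscle and pericyte markers were higher for 4 of 8 and lower for 3. Fibroblast markers were higher for 1 of 8 and lower for 1. Endothelial markers were higher for 2 of 8 and lymphocyte markers for 1 of 4. Erythroid precursor markers were higher for 1 of 4 and lower for 2. The part of these cell types in the replication results was not tested.

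Among the licensing factors, Cdc6, the ATPase that helps to load the helicase, was the 1 of 4 called higher in KO MI than in KO sham hearts. Cdc6 had 8.56, 13.1, 11.4 and 9.12 CPM in KO MI, against 5.92, 5.29, 5.46 and 7.94 CPM in KO sham. It had 9.38, 12, 9.15 and 11.1 CPM in WT MI, against 8.30, 9.59, 11.1 and 8.41 CPM in WT sham. All 4 KO sham libraries were below all 12 others. Cdc6 was 1.72-fold higher in KO MI than in KO sham (log2 fold change 0.78 ± 0.16 SE, adjusted p = 0.00415) and 1.53-fold lower in KO sham than in WT sham (log2 -0.61 ± 0.17, adjusted p = 0.0188). The second of these calls was lost without KO sham 1, KO sham 2, KO sham 3 or WT sham 3, with log2 fold changes of -0.75 to -0.51 over the libraries left out in turn. Orc6, a small subunit of the origin recognition complex, had 16, 18.2, 14.4 and 20.7 CPM in KO MI, against 13.7, 12.8, 12.2 and 17.6 CPM in KO sham. In WT MI it had 20.1, 21.7, 14.5 and 15.4 CPM, against 17.3, 22.0, 18.7 and 17.1 CPM in WT sham. These ranges overlapped, and Orc6 was not called (KO MI over KO sham log2 0.30, adjusted p = 0.17). Orc1, an ATP-binding subunit, and Cdt1, the partner of Cdc6 in loading, were not called either, with log2 fold changes of 0.51 ± 0.28 and 0.36 ± 0.19. Orc1 was among the scarcest members, with 1.76 to 4.91 CPM over all libraries, and Cdt1 ran from 17.1 to 43.8 CPM.

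The 6 subunits of the Mcm2 to Mcm7 ring, which sit in the helicase in equal number, were all higher in KO MI than in KO sham hearts. Mcm3 had 87.3, 94.7, 83.1 and 73.2 CPM in KO MI, against 47.8, 50, 56.6 and 63.6 CPM in KO sham. The WT MI libraries had 76.4, 101, 67.5 and 73.9 CPM of Mcm3, against 67.7, 77.2, 82.0 and 67.4 CPM in WT sham. Every KO sham library was again below every other library. Mcm3 was 1.55-fold higher in KO MI than in KO sham (log2 0.64 ± 0.12, adjusted p = 0.0021) and 1.35-fold lower in KO sham than in WT sham (log2 -0.43 ± 0.12, adjusted p = 0.0202); the second call was lost without KO sham 1, KO sham 2 or WT sham 3 (log2 -0.52 to -0.38). Mcm5 had 74.7, 95.2, 80.8 and 78.9 CPM in KO MI, against 53.1, 51.7, 53.9 and 66.8 CPM in KO sham. In WT MI it had 75.6, 98.7, 63.2 and 71.8 CPM, against 67.5, 71.7, 77.7 and 67.5 CPM in WT sham. KO sham 4 stood above the other 3 KO sham libraries but below all KO MI libraries. Mcm5 was 1.46-fold higher in KO MI (log2 0.55 ± 0.12, adjusted p = 0.00482), and its sham difference was not called (log2 -0.34, adjusted p = 0.0592). Mcm6, Mcm4, Mcm7 and Mcm2 followed with log2 fold changes of 0.55, 0.46, 0.44 and 0.31 for KO MI over KO sham. Of these, Mcm2 held least well: its KO MI range of 93.9 to 112 CPM overlapped its KO sham range of 69.0 to 98.1 CPM, its adjusted p was 0.044, and the call was lost without KO MI 1, KO MI 2, KO sham 1, KO sham 2 or KO sham 3 (log2 0.23 to 0.40). It was also lost under 5 of 13 other settings: no low-count filter, no haemoglobin and mitochondrial genes, length and GC correction, the Y-linked covariate and only the groups compared. Mcm4 was also lower in KO sham than in WT sham (log2 -0.38 ± 0.10, adjusted p = 0.0164), a call lost without KO sham 1, KO sham 2, KO sham 3 or WT sham 3. In wild type the 6 subunits had log2 fold changes of 0.04 to 0.20, none called.

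**Figure D3:**
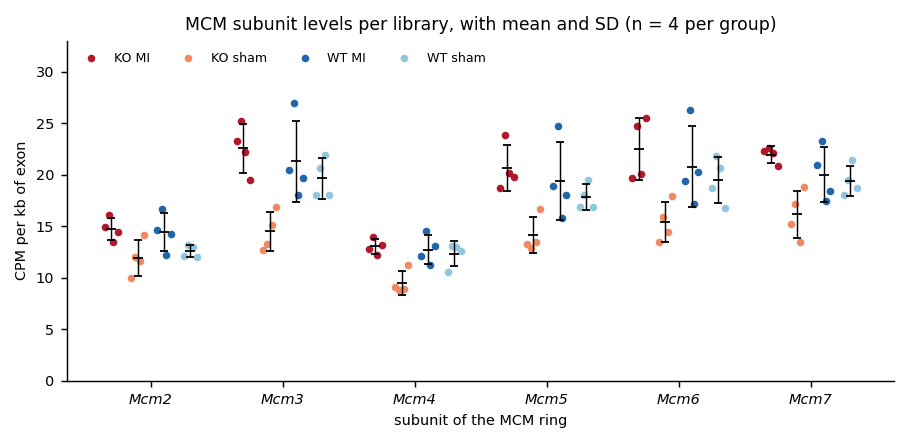
Level per kb of exon (CPM per kb, over all annotated exon bases of a gene) of the 6 subunits of the Mcm2 to Mcm7 helicase ring in each library, with the mean and SD of each group (n = 4). The KO MI mean lies above the KO sham mean for each subunit, with overlapping libraries for Mcm2, and the means of Mcm4 and Mcm2 lie below those of the other 4 in every group.

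Divided by exon length, 4 of the subunits lay close together and Mcm2 and Mcm4 lay lower. The length took in all annotated exon bases of a gene, 6956 for Mcm2 and 3589 to 4666 for the other subunits. The order per kb, here and over the 44 members, rests on this choice of length. In KO MI hearts they averaged 22.5 ± 3.02 CPM per kb for Mcm6, 22.5 ± 2.40 for Mcm3, 22.0 ± 0.793 for Mcm7, 20.6 ± 2.23 for Mcm5, 14.7 ± 1.09 for Mcm2 and 13.0 ± 0.703 for Mcm4 (SD, n = 4). In KO sham hearts they averaged 15.4 ± 1.93, 14.5 ± 1.90, 16.1 ± 2.33, 14.1 ± 1.76, 11.9 ± 1.72 and 9.48 ± 1.15 CPM per kb in that same order of genes. Neighbours among Mcm6, Mcm3, Mcm7 and Mcm5 did not differ beyond their spread. Over all 44 members and all libraries Pcna ranked first per kb (65.7 CPM per kb) and Rrm2 next (34.5), while Mcm10 (1.03), Orc1 (0.92) and E2f2 (0.763) ranked last.

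Of the factors that turn the loaded ring into an active helicase, 4 of 6 were called higher in KO MI than in KO sham hearts, and Mcm10 had the largest fold change of all 44 genes. Mcm10, a scaffold between the helicase and the polymerase that begins each strand, had 8.43, 11.2, 9.12 and 7.45 CPM in KO MI, against 4.69, 4.85, 5.08 and 5.29 CPM in KO sham. It had 9.71, 11.8, 6.32 and 8.24 CPM in WT MI, against 8.82, 7.95, 9.78 and 8.31 CPM in WT sham. The 4 KO sham libraries were tightly grouped below all others. Mcm10 was 1.82-fold higher in KO MI than in KO sham (log2 0.86 ± 0.17, adjusted p = 0.00266) and 1.75-fold lower in KO sham than in WT sham (log2 -0.81 ± 0.17, adjusted p = 0.00416), and both calls held with any library left out. Cdc45, which joins the ring in the active helicase, had 24.7, 28.2, 27.6 and 24.0 CPM in KO MI, against 17.0, 17.4, 14.9 and 21.2 CPM in KO sham. The WT MI libraries had 26.2, 30.7, 20.6 and 24.5 CPM, against 22.1, 23.4, 21.5 and 22.1 CPM in WT sham. Cdc45 was 1.48-fold higher in KO MI than in KO sham with no overlap (log2 0.57 ± 0.12, adjusted p = 0.00375). The GINS subunits were split. Gins2 and Gins1 were called higher in KO MI (log2 0.53 and 0.52), Gins1 not without KO MI 2, KO sham 1, KO sham 2 or KO sham 3 (log2 0.47 to 0.65) nor after length and GC correction (lowest log2 0.27), whereas Gins3 (log2 0.26 ± 0.21) and Gins4 (log2 0.20 ± 0.09) were not called. Gins4 was also the only member at an unadjusted p under 0.05 between KO MI and WT MI hearts, at 31.1 ± 2.03 against 26.1 ± 0.826 CPM (SD, n = 4; log2 0.25, adjusted p = 0.97). Counts of Gins2 are uncertain, since 67.3% of its exon bases overlap Gse1 on the opposite strand and the library kit does not mark strand. Overlaps of 1.6% to 8.7% on the opposite strand touch Mcm7, Orc6, Cdc45, Fen1 and Tk1 as well.

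Primase and the polymerases were called in 4 of 6 cases. Prim1, the catalytic primase subunit, had 27.4, 28.9, 27.7 and 28.7 CPM in KO MI, against 20.2, 20.3, 20.1 and 23.3 CPM in KO sham. Its WT MI libraries had 23.6, 30.7, 21.7 and 23.9 CPM, against 25.1, 26.7, 27.3 and 18 CPM in WT sham. The KO MI libraries lay close together and above all KO sham libraries. The KO MI to KO sham ratio was 1.34 (log2 0.43 ± 0.12, adjusted p = 0.0216), and the call was lost without KO MI 2, KO sham 1, KO sham 2 or KO sham 3 (log2 0.40 to 0.48). Pold1, the catalytic subunit of polymerase delta, had 61.7, 64.8, 53.9 and 43.4 CPM in KO MI, against 42.5, 38.4, 39.8 and 45.7 CPM in KO sham. In WT MI it had 55.3, 65.3, 45.2 and 54.7 CPM, against 50.2, 46.4, 53.8 and 50.8 CPM in WT sham. KO MI 4 lay among the KO sham libraries, so these groups overlapped. Pold1 was 1.35-fold higher in KO MI (log2 0.43 ± 0.12, adjusted p = 0.0175), a call lost without KO MI 2, KO sham 2 or KO sham 3 (log2 0.35 to 0.53). Pola2, the regulatory subunit of polymerase alpha, was higher in KO MI than in KO sham (log2 0.31 ± 0.10, adjusted p = 0.0384), a call kept in 1 of the 8 fits that left out a library, the one without KO MI 4, and lost after length and GC correction. Pola2 was also lower in KO sham than in WT sham (log2 -0.45 ± 0.10, adjusted p = 0.00572), which held for each library left out. Pole, the catalytic subunit of polymerase epsilon, passed narrowly (log2 0.50 ± 0.17, adjusted p = 0.0496) and was lost without any of KO MI 1 to KO MI 3 or KO sham 1 to KO sham 3 (log2 0.35 to 0.69), and under 5 of 13 other settings (RLE scaling, no low-count filter, no haemoglobin and mitochondrial genes, the Y-linked covariate and only the groups compared). Pola1, the catalytic subunit of polymerase alpha, and Prim2, the large primase subunit, were not called, and Pola1 had the smallest fold change of the 44 (log2 0.06 ± 0.14).

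The sliding clamp Pcna, a ring that tethers polymerase delta to DNA, was the most abundant member per kb. Pcna had 158, 174, 166 and 208 CPM in KO MI, against 135, 147, 125 and 134 CPM in KO sham. The WT MI libraries had 163, 182, 133 and 159 CPM, against 166, 156, 170 and 146 CPM in WT sham. KO MI lay wholly above KO sham, and WT MI surrounded WT sham. Pcna was 1.31-fold higher in KO MI than in KO sham (log2 0.39 ± 0.10, adjusted p = 0.0131); the call was lost when counts were corrected for transcript length and GC content. The clamp loader subunits Rfc3, Rfc4 and Rfc5 had log2 fold changes of 0.32, 0.44 and 0.36 and none was called. Rfc5 had 18.6, 18.8, 16.5 and 18.6 CPM in KO MI, against 14.1, 14.3, 12.4 and 15.8 CPM in KO sham, with no overlap and an adjusted p of 0.0677. Its WT MI libraries had 18.8, 23.6, 15.7 and 15.3 CPM, against 15.1, 20.0, 15.3 and 17.7 CPM in WT sham, which overlapped. Of the exon bases of Rfc4 and Rfc5, 12.7% and 10.7% overlap Eif4a2 and Wsb2 on the opposite strand.

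Lig1, the ligase that seals the fragments of the lagging strand, was the 1 member whose response to infarction passed the test of a difference between the genotypes. That 1 of 44 (2.27%) is no more than the 2.74% of all genes called in the same test. Lig1 had 72.7, 76.1, 74.4 and 60.4 CPM in KO MI, against 43.3, 44, 40.2 and 50.4 CPM in KO sham. It had 61.9, 77.7, 54.7 and 63.8 CPM in WT MI, against 64.0, 64.9, 72.1 and 61.4 CPM in WT sham. KO sham libraries were below all 12 others, and WT MI lay around WT sham. Lig1 was 1.60-fold higher in KO MI than in KO sham (log2 0.67 ± 0.10, adjusted p = 0.000462) and 1.48-fold lower in KO sham than in WT sham (log2 -0.56 ± 0.10, adjusted p = 0.00152), against a log2 fold change of -0.02 ± 0.10 for WT MI over WT sham (adjusted p = 0.951). The difference between the 2 responses, KO minus WT, was 0.69 ± 0.15 on the log2 scale (adjusted p = 0.014), and it was called with each of the 16 libraries left out in turn (0.63 to 0.80). Of the exon bases of Lig1, 5.79% overlap Zswim9 on the opposite strand. Fen1, the nuclease that trims the fragments before ligation, had 28.1, 29.5, 28.9 and 32.9 CPM in KO MI, against 18, 22.9, 18.7 and 22.7 CPM in KO sham. In WT MI it had 23.6, 33, 21.1 and 26.9 CPM, against 23.2, 23.4, 24.9 and 23.5 CPM in WT sham. Fen1 was 1.45-fold higher in KO MI than in KO sham with no overlap (log2 0.54 ± 0.12, adjusted p = 0.00554). Rpa2, a subunit of the complex that coats single-stranded DNA, was not called (28.9 ± 1.34 CPM in KO MI and 26.3 ± 3.21 CPM in KO sham, SD, n = 4 each; log2 0.14 ± 0.12).

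**Figure D4:**
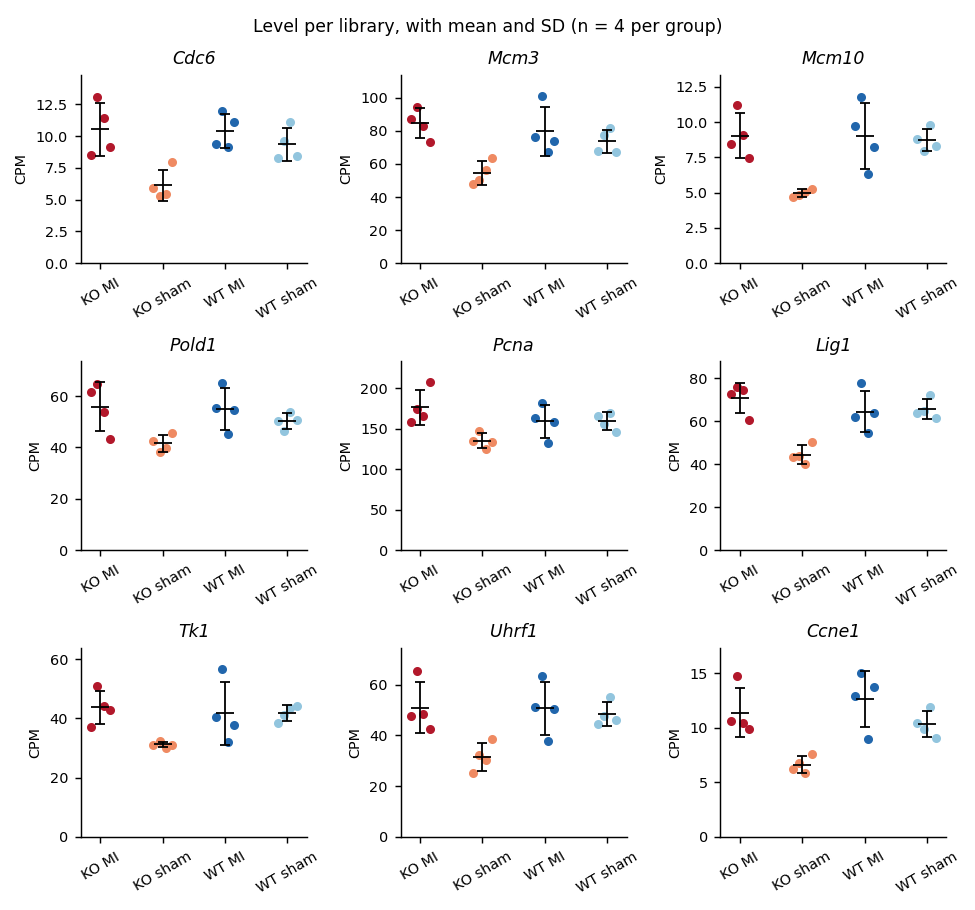
Level (CPM) of 9 members in each library, with the mean and SD of each group (n = 4). KO sham lies below KO MI with no overlap for each of the 9 but Pold1, and for Pcna, Tk1, Lig1 and Mcm10 the WT MI and WT sham means nearly coincide.

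In the supply of nucleotides, the thymidylate enzymes moved and the small ribonucleotide reductase subunit did not pass. Tyms, thymidylate synthase, had 14.9, 20.5, 16.9 and 18.7 CPM in KO MI, against 13.3, 10.1, 10.5 and 11.9 CPM in KO sham. The WT MI libraries had 17.9, 26.3, 12.1 and 17.9 CPM, against 15.6, 18.2, 20.3 and 19.5 CPM in WT sham. KO sham lay below both KO MI and WT sham without overlap. Tyms was 1.55-fold higher in KO MI than in KO sham (log2 0.63 ± 0.17, adjusted p = 0.0193), a call lost without KO MI 2, KO sham 2 or KO sham 3 (log2 0.55 to 0.71), and 1.61-fold lower in KO sham than in WT sham (log2 -0.68 ± 0.18, adjusted p = 0.0138). Tk1, the thymidine kinase that peaks in S phase, had 37.1, 50.9, 44.2 and 42.8 CPM in KO MI, against 31.2, 32.4, 30.2 and 31.2 CPM in KO sham. Its WT MI libraries had 40.6, 56.6, 31.9 and 37.8 CPM, against 38.5, 41.1, 43.6 and 44.1 CPM in WT sham. The KO sham libraries of Tk1 differed by little and were below those of KO MI and WT sham. Tk1 was 1.40-fold higher in KO MI than in KO sham (log2 0.49 ± 0.13, adjusted p = 0.0163), lost without KO MI 2, and lower in KO sham than in WT sham (log2 -0.42 ± 0.13, adjusted p = 0.0366), lost without any single one of 7 of the 8 sham libraries and after length and GC correction. Rrm1, the large subunit of ribonucleotide reductase, passed narrowly (log2 0.33 ± 0.11, adjusted p = 0.0487) and stayed called in 1 of the 8 fits that left out a library, the one without KO MI 1. It was also lost under 4 of 13 other settings (RLE scaling, no low-count filter, no haemoglobin and mitochondrial genes and the Y-linked covariate). Rrm2, its small subunit, had 96.2 ± 8.25 CPM in KO MI and 82.3 ± 13.7 CPM in KO sham, against 112 ± 20.3 CPM in WT MI and 92.4 ± 12.1 CPM in WT sham (SD, n = 4 each). Rrm2 and Ung, the glycosylase that removes uracil from DNA, were not called, with log2 fold changes of 0.23 ± 0.13 and 0.20 ± 0.13 in the knockout and 0.27 ± 0.13 and 0.21 ± 0.13 in wild type. They were the 2 members whose fold change was not larger in the knockout.

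The 4 genes of histone supply and chromatin copying were all called higher in KO MI than in KO sham hearts, though not all of these calls held with single libraries left out. Uhrf1, which recognises hemimethylated DNA behind the fork and recruits the maintenance methyltransferase, had 47.5, 65.5, 48.3 and 42.4 CPM in KO MI, against 25.3, 32.2, 30.3 and 38.4 CPM in KO sham. In WT MI it had 51.2, 63.2, 37.8 and 50.2 CPM, against 44.5, 47.7, 55.0 and 46.0 CPM in WT sham. Uhrf1 was 1.62-fold higher in KO MI than in KO sham (log2 0.69 ± 0.15, adjusted p = 0.00563) and 1.53-fold lower in KO sham than in WT sham (log2 -0.62 ± 0.15, adjusted p = 0.0114), and neither pair of groups overlapped. Chaf1a, the large subunit of chromatin assembly factor, had 31.0, 38.2, 34.8 and 35.8 CPM in KO MI, against 24.4, 25.0, 23.2 and 28.1 CPM in KO sham. In WT MI hearts it had 34.6, 44.7, 31.0 and 33.6 CPM, against 31.5, 27.6, 32.1 and 20.4 CPM in WT sham. Chaf1a was 1.39-fold higher in KO MI than in KO sham (log2 0.47 ± 0.13, adjusted p = 0.0175), lost without KO MI 2, KO sham 1 or KO sham 3 (log2 0.43 to 0.53); 52.5% of its exon bases overlap Ubxn6 on the opposite strand, so its counts are uncertain. Chaf1b, its partner subunit, was higher in KO MI than in KO sham (log2 0.53 ± 0.16, adjusted p = 0.0293), lost without KO MI 2, KO MI 4, KO sham 1, KO sham 3 or KO sham 4, and lower in KO sham than in WT sham (log2 -0.71 ± 0.16, adjusted p = 0.00637). Its response differed most between the genotypes on the log2 scale, by 0.82 ± 0.23, which did not pass (adjusted p = 0.0564). Slbp, which binds the stem-loop of histone messages, was higher in KO MI (log2 0.36 ± 0.12, adjusted p = 0.0372) and stayed called in 2 of the 8 fits that left out a library, those without KO MI 4 and without KO sham 4, and was lost after length and GC correction.

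Of the G1/S regulators, cyclin E1 and E2f1 were called and the other 4 were not. Ccne1, cyclin E1, had 10.6, 14.7, 10.4 and 9.88 CPM in KO MI, against 6.25, 6.76, 5.90 and 7.62 CPM in KO sham. Its WT MI libraries had 12.9, 15.0, 8.97 and 13.7 CPM, against 10.4, 9.90, 11.9 and 9.09 CPM in WT sham. Every KO sham library was below all 12 others. Ccne1 was 1.72-fold higher in KO MI than in KO sham (log2 0.78 ± 0.16, adjusted p = 0.0036) and 1.56-fold lower in KO sham than in WT sham (log2 -0.64 ± 0.17, adjusted p = 0.0136), and both calls held with any library left out. E2f1, an activating E2F factor, had 33.8, 38.8, 34.8 and 37.5 CPM in KO MI, against 23.8, 27.4, 24.8 and 28.9 CPM in KO sham. In WT MI it had 37.1, 37.4, 28.5 and 36.2 CPM, against 28.4, 29.1, 29.8 and 23.6 CPM in WT sham. The wild-type ranges overlapped through WT MI 3 alone. E2f1 was 1.38-fold higher in KO MI than in KO sham (log2 0.47 ± 0.10, adjusted p = 0.00515), whereas its wild-type fold change of 1.26 did not pass (log2 0.33 ± 0.10, adjusted p = 0.108), and its levels in KO sham and WT sham were close (log2 -0.08 ± 0.10). Ccne2, cyclin E2, missed the threshold at an adjusted p of 0.0514 with a log2 fold change of 0.51 ± 0.18, and 17.4% of its exon bases overlap Ints8. Cdc25a, the phosphatase that activates the cyclin E kinase, E2f2, another activating E2F, and E2f8, an E2F that represses, had log2 fold changes of 0.16 ± 0.13, 0.33 ± 0.32 and 0.38 ± 0.15 without a call.

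In wild type 0 of the 44 genes were called by edgeR, 0 by DESeq2 and 0 by limma. At an unadjusted p under 0.05 edgeR listed 3 (6.82%, against 15% of all genes): E2f1, Chaf1a and Rrm2, with log2 fold changes of 0.33, 0.37 and 0.27 for WT MI over WT sham. The WT MI libraries disagreed among themselves: WT MI 2 was the highest of its group for 42 of the 44 genes and the highest of all 16 libraries for 27, while WT MI 3 was the lowest of its group for 41. The median coefficient of variation over the 44 genes was 18.4% in WT MI, against 11% in WT sham, and was 11.6% in KO MI and 12.2% in KO sham. Without WT MI 3 a single member was called between WT MI and WT sham hearts. The absence of calls does not show that the levels were equal: the upper 95% limit of the log2 fold change ran from 0.05 to 0.84 over the 44 genes, and for 15 of them it was at or above 0.44, the median for KO MI over KO sham.

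The difference between the responses, KO minus WT, was tested for each gene in the same model. It draws on the KO sham libraries, for which a shared batch and the group cannot be told apart. Lig1 alone passed (1 of 44, 2.27%, where 2.74% of all genes were called), although 42 of the 44 genes had the larger log2 fold change in the knockout and 21 had an unadjusted p under 0.05 (95.5% and 47.7%, against 50.4% and 18.1% of all genes tested). The median difference was 0.37 over the 44 genes and 0 over all genes tested. Differences were also positive for 40 of 48 other replication genes and 28 of 30 mitosis and cytokinesis genes, but for 1 of 8 endothelial markers. All 8 epicardium and mesothelium markers and all 4 haemoglobin genes tested passed, with positive differences (median 2.56 and 1.53). The 4 haemoglobin genes were also called lower in WT MI than in WT sham hearts. The count of members that passed depended on single libraries and on the method. Without WT MI 2 it was 13, without KO MI 1, KO MI 4 or WT sham 1 it was 2 each, and without KO MI 4, WT MI 2 and WT sham 2 together it was 16. The count was 3 with DESeq2 and 19 with limma, which was run as voom with quality weights. The limma fit thus differed from edgeR in its weighting as well as in its test. The count over all genes moved with it, at 368 in the fit of all libraries, 817 without WT MI 2, 1432 without the 3 libraries, 628 with DESeq2 and 1509 with limma. Between genotypes after infarction, 0 of the 44 genes were called by edgeR, DESeq2 and limma, and 1, Gins4, had an unadjusted p under 0.05 (2.27%, against 4.76% of all genes).

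**Figure D5:**
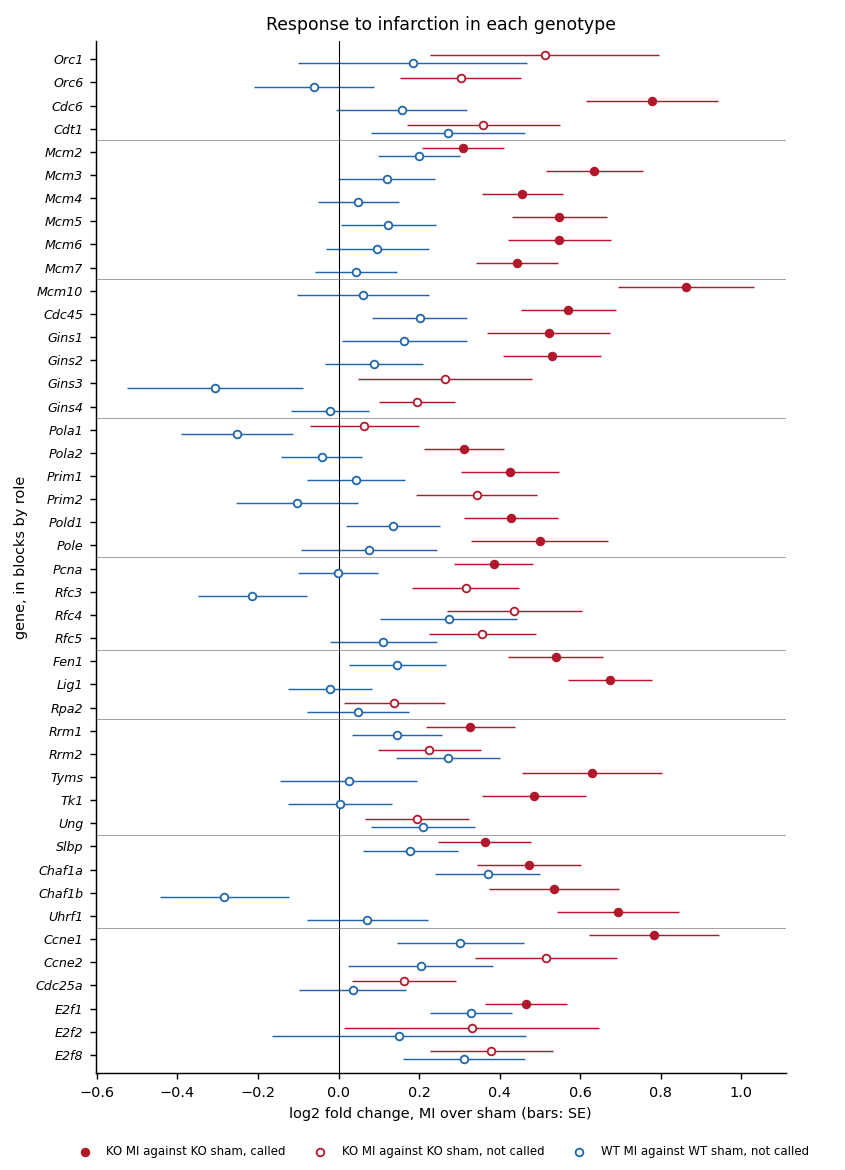
Log2 fold change of infarction over sham for each of the 44 genes in blocks by role, in the knockout and in wild type (points, with bars of 1 SE). In the knockout all 44 points lie above 0 (0.06 to 0.86), while in wild type they lie on both sides of 0 (-0.31 to 0.37).

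Leaving out libraries changed the counts in the knockout as well. The 27 genes called higher in KO MI than in KO sham hearts became 15 without KO MI 2, 16 without KO sham 3 and 18 without KO sham 1 or without KO sham 2. The 11 called lower in KO sham than in WT sham hearts became 7 without KO sham 1, KO sham 2 or WT sham 3. KO MI 2 was the highest KO MI library for 29 of the 44 genes, and KO sham 4 was the highest KO sham library for 35.

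Genes of the same pathways outside the set were read from lists of their own, also chosen with earlier results of these data known. Of 48 other replication genes, 20 were higher and 0 lower in KO MI than in KO sham hearts (41.7% higher, against 8.54% of all genes; median log2 0.32). The smallest adjusted p-values were those of Donson, a replisome factor (8.46 ± 1.08 CPM in KO MI and 5 ± 0.874 CPM in KO sham, SD, n = 4 each; log2 0.76, adjusted p = 0.00285), of Rpa3, a small single-strand binding subunit (log2 0.43, adjusted p = 0.00375), and of Dna2, a nuclease of the lagging strand (log2 0.62, adjusted p = 0.00473). In KO sham 6 of the 48 were lower than in WT sham (12.5%, against 7.74% of all genes), those with the smallest p being Ssrp1, a histone chaperone (log2 -0.34, adjusted p = 0.0102), Asf1b, another histone chaperone (log2 -0.58, adjusted p = 0.0143), and Clspn, a checkpoint mediator at the fork (log2 -0.44, adjusted p = 0.0161). In wild type 1 of the 48 was called higher after infarction, a share of 2.08% that is near the 1.32% of all genes: Timeless, a fork protection factor, at 34.1 ± 3.67 CPM in WT MI and 24.5 ± 2.14 CPM in WT sham (SD, n = 4 each; log2 0.48, adjusted p = 0.0123).

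Among other G1/S regulators, 4 of 23 were higher and 1 was lower in KO MI than in KO sham hearts (17.4% and 4.35%, against 8.54% and 8.02% of all genes). Cdk4, the kinase that phosphorylates the retinoblastoma protein, was higher (143 ± 6.63 CPM in KO MI and 108 ± 1.47 CPM in KO sham, SD, n = 4 each; log2 0.40, adjusted p = 0.00599). Its partners Ccnd1 and Ccnd3 were higher too (log2 0.52, adjusted p = 0.0141; log2 0.33, adjusted p = 0.0211). Rbl2, a retinoblastoma family repressor that marks resting cells, was lower (28.4 ± 2.78 CPM in KO MI and 35.5 ± 3.06 CPM in KO sham, SD, n = 4 each; log2 -0.32, adjusted p = 0.0337). Between the sham groups Cdk4 (log2 -0.44, adjusted p = 0.00348), Ccnd3 (log2 -0.36, adjusted p = 0.0145) and Ccna2, cyclin A2 (log2 -0.44, adjusted p = 0.027), were among 5 of 23 that were lower in KO sham than in WT sham hearts (21.7%, against 7.74% of all genes), and Rbl2 was higher (log2 0.48, adjusted p = 0.00428). These comparisons share the KO sham libraries. Cdk4 passed the test of the difference between responses (KO minus WT 0.52 on the log2 scale, adjusted p = 0.0309). It was the 1 of 23 to pass (4.35%, against 2.74% of all genes). In the same test 0 of the 48 other replication genes and 0 of the 30 mitosis and cytokinesis genes passed.

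Later in the cycle, 13 of 30 mitosis and cytokinesis genes were higher and 0 lower in KO MI than in KO sham hearts, with a median log2 fold change of 0.40 (43.3% higher, against 8.54% of all genes). Tpx2, a spindle assembly factor (log2 0.57, adjusted p = 0.00507), Cdca8, a subunit of the chromosomal passenger complex (log2 0.53, adjusted p = 0.00903), and Top2a, which untangles chromosomes (log2 0.55, adjusted p = 0.01), led them. In KO sham hearts 6 of the 30 were lower than in WT sham (20%, against 7.74% of all genes), led by Birc5, another passenger subunit (log2 -0.59, adjusted p = 0.0135), with Top2a (log2 -0.49, adjusted p = 0.0188) and Tpx2 (log2 -0.44, adjusted p = 0.0226). Their summed level was 1420 to 2040 CPM in KO MI, 1210 to 1350 CPM in KO sham, 1370 to 2310 CPM in WT MI and 1480 to 1730 CPM in WT sham, with WT MI 2 the highest library, as it was for the replication genes.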

How the data were processed

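Polyadenylated RNA from 16 mouse ventricle samples in 4 groups of 4 was sequenced on an Illumina HiSeq instrument from NEBNext Ultra libraries, per the labels' protocols. The submitters' processing notes name bcl2fastq 2.17, cutadapt 3.4, FastQC, HISAT2 2.2.1, HTSeq 0.13.5, DESeq2 and the GRCm39 build. The authors deposited raw read counts per Ensembl gene for each sample. The 5 lines that name no gene held 25.8% to 29.9% of counts and were left out. All sample columns were used (0 unused), and 0 columns were identical.

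Counts were tested with edgeR 4.0.16 in R 4.3.3 (TMM scaling, filterByExpr on the 4 groups, robust quasi-likelihood fit of all 16 libraries with 12 residual degrees of freedom). P-values were adjusted by Benjamini-Hochberg over 13412 genes and called under 0.05. SE is the log2 fold change divided by the root of its F statistic. Alternatives were DESeq2 1.42.0, limma 3.58.1 (voom with quality weights), other scalings and filters, covariates, fewer groups and each library left out. Gene totals of 10711442 to 17223580 per library limit precision, and binomial intervals (exact, 95%) cover counting error only. GRCm38 annotation served only for names, lengths, GC content and overlaps, and RefSeq GRCm38.p6 for promoters. The members and lists were chosen with earlier results of these data known. Per role, every sample value is given for the 2 members with the smallest p in KO MI against KO sham and for any called in WT MI against WT sham, KO MI against WT MI or the difference between responses (18 members). Of each pathway list the 3 called genes with the smallest p per direction are named, and of the marker lists described at most the 2 with the smallest p. Gins4, Rrm2, Timeless, and Cdk4 in the difference between responses, were named after their values were seen.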

Additional observations from a re-analysis of the deposited data

Results flagged for a closer look

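Among the 18 members given in every sample, each of 4 groups was examined for a library far from the other 3, which makes 72 groups, and 5 held such a library. Chance alone gives about 1 in 20 groups. Mcm5 stood at 66.8 CPM in KO sham 4, against 51.7 to 53.9 CPM in the other KO sham libraries. Prim1 stood at 23.3 CPM in KO sham 4, against 20.1 to 20.3 CPM in the others of its group. Rfc5 stood at 16.5 CPM in KO MI 3, against 18.6 to 18.8 CPM. Ccne1 stood at 14.7 CPM in KO MI 2, against 9.88 to 10.6 CPM. E2f1 stood at 28.5 CPM in WT MI 3, against 36.2 to 37.4 CPM. The response of Lig1 to infarction differed between the genotypes, with a difference, KO minus WT, of 0.695 on the log2 scale. Lig1 was the 1 of 44 members called in that test (2.27%), no more than the 2.74% of all genes. That test draws on the KO sham libraries, for which a shared batch and the group cannot be told apart.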

How the results depend on the processing

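For KO MI against KO sham, the 27 members called became 23 to 34 under 13 other settings (30 with a replicate block) and 15 to 26 with a library left out. The 2220 genes called over the whole table (1145 higher, 1075 lower) became 4811 with limma, 3958 without the 3 libraries apart on the fourth component, 2413 with the replicate block and 1230 to 2931 with a library left out. The split was 899 higher and 1276 lower after length and GC correction, and 1368 and 889 with upper quartile scaling. For WT MI against WT sham, the 0 members called became 0 to 1 with a library left out. The 302 genes became 511 with DESeq2, 496 with limma, 482 with length and GC correction, 490 with that and the block, 185 with only the groups compared, 558 without the 3 libraries and 86 to 385 with a library left out. For KO sham against WT sham, the 11 members became 22 with limma, 20 with only the groups compared, 13 with the block and 7 to 15 with a library left out; the 2057 genes became 3905, 3211, 2202 and 1298 to 2077 under the same settings. For KO MI against WT MI, 0 members were called under any setting run, and the 2 genes became 10 with DESeq2, 1 without haemoglobin and mitochondrial genes, 1 with only the groups compared, 11 without the 3 libraries and 1 to 4 with a library left out. For the difference between responses, the 1 member became 3 with DESeq2, 19 with limma, 2 with the replicate block, 3 with the block and length and GC correction, 16 without the 3 libraries and 1 to 13 with a library left out. Its 368 genes became 628 with DESeq2, 1509 with limma, 1432 without the 3 libraries and 178 to 817 with a library left out. The cause of these changes was not tested. Leaving out the 3 libraries was chosen after seeing the data. The fit on only the groups compared was not run for the difference between responses, which needs all 4.

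Same-numbered samples of different groups had correlations of -0.0968 to 0.475 between their deviations (24 pairs, median 0.011, 4 above 0.1). Differently numbered samples of different groups had correlations of -0.326 to 0.21 (72 pairs, median -0.00631, 8 above 0.1). With 5 of 16 samples correlating best with their own number, the numbers were not taken as a pairing in the main fit. These values do not exclude a pairing. Genes at low counts, such as Orc1 and E2f2, had the widest errors.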
